A study of Homo sapiens with 5 samples.

Results

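The long intergenic and antisense RNA genes of CP70 ovarian cancer cells were compared between clones that overexpress DDB2 and clones that carry the empty vector. Members were the transcript clusters of the array (1 probe set summary per locus) that carry a single gene symbol which starts with LINC or ends in -AS1, -AS2, -AS3, -IT1 or -DT, with NR2F1-AS1 left out. The rule uses names and no measured value, and it found 1490 of 67528 clusters, with 1441 symbols. Of these clusters, 559 were of LINC genes, 782 of antisense genes (-AS) and 71 of genes inside an intron of a host gene (-IT1). The other 78 were of divergent transcripts (-DT), which start beside a coding gene and run away from it. CP70 is the cisplatin-resistant derivative of the ovarian cancer line A2780. The DDB2 group was 3 CP70 clones stably transfected with pcDNA3.1-His-DDB2, and the control group was 2 CP70 clones stably transfected with the empty vector. Total RNA of each clone was measured on 1 GeneChip Human Transcriptome Array 2.0. Each array is 1 clone, so the clone and the transgene that it carries cannot be told apart in any single array, and P-values measure only the spread between these 5 clones. The sample titles number the vector clones 1 and 3 and the DDB2 clones 1, 2 and 3, and these numbers are used here. The labels conflict for 1 array, since the vector clone titled 3 has the number 2 in its source name, and the names 1B, 3H and 4H of the DDB2 clones cannot be assigned to these numbers from them. Values are given in the order vector clone 1, vector clone 3, DDB2 clones 1, 2 and 3.

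Long noncoding RNAs are transcribed by RNA polymerase II and often spliced, but have no known long reading frame. LINC genes lie between coding genes, whereas antisense genes are read from the strand opposite to a named sense gene and may overlap its body, its end or its start. Where an antisense or divergent gene starts beside the sense gene and both run outwards, a single stretch of open chromatin serves both start sites, which is called a bidirectional promoter. An -IT1 gene lies within an intron of its host and is usually read from the same strand. In that arrangement, probes to the intronic gene can also bind unspliced RNA of the host, and the sources cannot be told apart. Some antisense RNAs are known to act on their sense gene, such as CDKN2B-AS1, which binds Polycomb proteins at the CDKN2B locus, while others have no known function.

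Start regions are printed for 6 members in which the RefSeq start site of the sense gene falls inside the member's own window, with both genes running outwards. The first 5 are shown because the member and the sense gene were high and low in many of the same clones. BSN-DT is shown because it varied while its sense gene, whose signal was low, did not. Each window runs 5′ to 3′ on the strand of the noncoding RNA, from 250 bases before its RefSeq start site to 50 bases after it (RefSeq, GRCh38.p14). Capitals mark the bases from the start site of the sense gene to that of the member.
KCNJ2-AS1: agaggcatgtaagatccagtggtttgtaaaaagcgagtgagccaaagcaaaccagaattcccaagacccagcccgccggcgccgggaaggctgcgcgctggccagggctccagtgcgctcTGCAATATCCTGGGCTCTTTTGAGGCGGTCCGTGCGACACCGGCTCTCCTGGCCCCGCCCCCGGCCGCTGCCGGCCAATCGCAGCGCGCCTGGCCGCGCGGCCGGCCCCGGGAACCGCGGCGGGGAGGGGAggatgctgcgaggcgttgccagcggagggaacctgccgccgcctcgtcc
TM4SF1-AS1: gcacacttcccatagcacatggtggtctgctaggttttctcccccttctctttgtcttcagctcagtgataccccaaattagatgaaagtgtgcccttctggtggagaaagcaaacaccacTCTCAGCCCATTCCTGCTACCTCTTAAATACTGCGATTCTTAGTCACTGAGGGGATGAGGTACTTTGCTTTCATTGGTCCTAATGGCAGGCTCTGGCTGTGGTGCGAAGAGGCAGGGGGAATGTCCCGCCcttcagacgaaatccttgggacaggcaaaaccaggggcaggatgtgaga
CSTF3-DT: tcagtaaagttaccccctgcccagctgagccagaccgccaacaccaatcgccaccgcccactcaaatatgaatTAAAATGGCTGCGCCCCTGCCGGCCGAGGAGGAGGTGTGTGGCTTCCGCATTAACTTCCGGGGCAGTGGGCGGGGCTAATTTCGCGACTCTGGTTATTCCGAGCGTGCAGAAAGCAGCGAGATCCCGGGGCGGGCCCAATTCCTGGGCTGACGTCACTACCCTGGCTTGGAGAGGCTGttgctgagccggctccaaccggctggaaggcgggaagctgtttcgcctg
RAB30-DT: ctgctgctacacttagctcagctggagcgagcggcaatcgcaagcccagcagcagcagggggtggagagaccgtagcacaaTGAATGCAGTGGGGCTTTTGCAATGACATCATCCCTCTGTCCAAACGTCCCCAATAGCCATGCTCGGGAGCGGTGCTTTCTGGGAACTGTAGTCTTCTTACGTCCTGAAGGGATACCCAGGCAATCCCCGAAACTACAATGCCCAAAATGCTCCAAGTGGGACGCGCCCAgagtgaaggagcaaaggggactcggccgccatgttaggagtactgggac
ZNF407-AS1: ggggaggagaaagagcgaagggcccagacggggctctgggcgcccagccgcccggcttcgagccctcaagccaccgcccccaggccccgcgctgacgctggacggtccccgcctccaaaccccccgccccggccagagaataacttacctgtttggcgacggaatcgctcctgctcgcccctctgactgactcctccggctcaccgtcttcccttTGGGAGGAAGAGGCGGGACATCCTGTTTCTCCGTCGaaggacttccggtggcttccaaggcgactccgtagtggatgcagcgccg
BSN-DT: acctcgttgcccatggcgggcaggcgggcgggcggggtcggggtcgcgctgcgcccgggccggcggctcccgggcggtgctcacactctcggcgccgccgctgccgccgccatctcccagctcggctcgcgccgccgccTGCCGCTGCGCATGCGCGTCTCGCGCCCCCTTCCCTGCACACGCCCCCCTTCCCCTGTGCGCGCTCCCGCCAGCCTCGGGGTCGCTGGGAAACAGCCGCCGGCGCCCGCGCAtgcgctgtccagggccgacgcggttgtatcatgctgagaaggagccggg
The window of KCNJ2-AS1 is chr17:70169353-70169652 on the minus strand, and KCNJ2 starts 130 bases before the antisense start. The window of TM4SF1-AS1 is chr3:149377528-149377827 on the plus strand, with TM4SF1 starting 129 bases before it. The window of CSTF3-DT is chr11:33161407-33161706 and that of RAB30-DT is chr11:83071816-83072115, both on the plus strand, with CSTF3 starting 177 and RAB30 starting 169 bases before the member. The window of ZNF407-AS1 is chr18:74597786-74598085 on the minus strand and has the shortest stretch, with ZNF407 starting 35 bases before it. The window of BSN-DT is chr3:49554317-49554616 on the minus strand, with BSN starting 111 bases before it. None of the 6 windows held TATAAA (the core of a TATA box) or CACGTG (an E-box) on either strand. CCAAT was found on either strand 2 times in the CSTF3-DT window, and 1 time each in those of KCNJ2-AS1, TM4SF1-AS1 and RAB30-DT. The number of CG dinucleotides ran from 4 in the TM4SF1-AS1 window to 47 in the BSN-DT window.

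The clones matched their labels in DDB2 itself, the damaged-DNA binding protein, with log2 signals of 7.84, 7.25, 9.87, 9.00 and 9.14. The difference was 1.79 on the log2 scale (standard error 0.337, limma, unadjusted P = 0.00376, adjusted p = 0.999). The array medians were between 4.40 and 4.45. Of 8 epithelial and ovarian cancer markers, 6 passed the filter described below, among them the keratins KRT8 and KRT18, whereas CDH1 and WT1 did not. KRT18 was at 8.14, 8.67, 6.75, 8.27 and 8.29, lowest in DDB2 clone 1. KRT19 (4.74 to 4.91) and MUC16 (4.63 to 4.69) passed but lay close to the filter level. EPCAM, an epithelial adhesion molecule, was at 7.26, 5.86, 5.53, 5.44 and 5.29, lower in every DDB2 clone. Of 8 measured markers of blood, endothelial and stromal cells, 2 passed, COL1A1 and VWF, with VWF close to the level too (4.55 to 4.67). PTPRC, CD3E, CD14 and PECAM1 lay under the level on all arrays. The stromal proteoglycan genes DCN (4.01, 2.91, 6.02, 2.50 and 2.57 at its brighter cluster) and LUM (3.59, 2.90, 4.73, 2.39 and 2.45) were highest in DDB2 clone 1 and next in vector clone 1. The part of these differences in the results below was not tested.

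A cluster was kept for the comparison when it exceeded the median of all deposited values, 4.48 on the log2 scale, on at least 2 of the 5 arrays. This level stands in for a noise level. By it, 598 of the 1490 members were kept (40.1%), against 50.6% of all clusters and 68.3% of clusters with 1 symbol. The share was 60.3% of -DT members (47), 43.1% of -AS members (337), 35.2% of -IT1 members (25) and 33.8% of LINC members (189). Of the 892 members under the filter, 840 were at or under the level on all 5 arrays. Of the 598 kept, 499 exceeded it on all 5 arrays and 585 in both groups, so 13 members passed through 1 group alone. Clusters are not all independent: 37 symbols had over 1 cluster, and OR2W1-AS1 had 8, most with identical values on every array. Because the array measures RNA of a whole culture, fewer cells that express a gene and less RNA per cell cannot be told apart.

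No long noncoding RNA gene of these families was called different between DDB2 and vector clones. A call required more than a 2-fold change together with P under 0.05 before adjustment in limma, the thresholds used in the study, with the model fitted to all 34141 clusters kept. Of the 598 members kept, 0 were higher and 0 were lower in the DDB2 clones. Among all clusters kept, 0.164% were called higher (56 clusters) and 0.187% were called lower (64 clusters), so about 1 call in each direction would match the background share. At an unadjusted P under 0.05 with no limit on fold, 8 members were found (1.34%), against 3.21% of all clusters. The smallest adjusted p of any member was 0.999. Values of all 3 DDB2 clones lay above both vector clones in 43 members and below both in 73, together 19.4%, against 18.0% of all clusters. The median log2 fold change of the members was 0.00, with quartiles at -0.09 and 0.13, beside a median of -0.01 over all clusters. The changes ran from -1.52 to 1.47, and 4 members passed a 2-fold change. Of 25 -IT1 members, 7 had a change above 0 (28.0%), and their median was -0.08. Over all members 50.2% and over all clusters 47.2% were above 0.

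**Figure D1:**
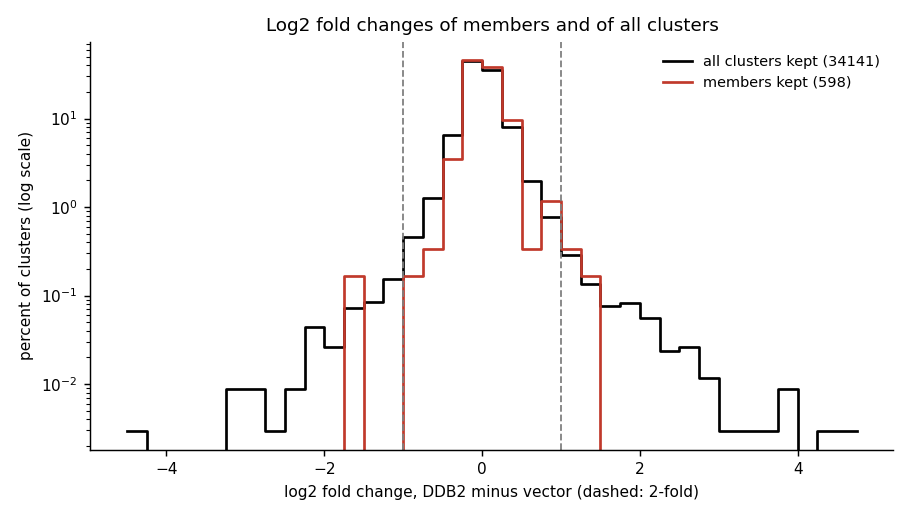
Percent of clusters (log scale) in each interval of the log2 fold change, DDB2 minus vector, for the 598 members kept (red) and all 34141 clusters kept (black), with dashed lines at a 2-fold change. The members' changes ran from -1.52 to 1.47, inside the range of all clusters.

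The 8 members with an unadjusted P under 0.05 had changes under 2-fold, from -0.54 for LINC00597 to 0.83 for ZNF407-AS1. They are named because of that value, so their P describes the selection. The antisense gene ZNF407-AS1 was at 5.80, 5.25, 6.77, 6.34 and 5.96. All DDB2 clones lay above both vector clones, with a gap of less than the spread within either group, and the difference was 0.83 (standard error 0.302, limma, unadjusted P = 0.043, adjusted p = 0.999). FAM13A-AS1 was at 4.31, 4.24, 4.46, 4.89 and 4.92, and it exceeded the filter level only in DDB2 clones 2 and 3. It was therefore tested only because it was high in the DDB2 group, and its P is no support for a difference. ATP8B1-AS1, antisense to the lipid flippase gene ATP8B1, was at 5.39, 5.14, 5.85, 5.66 and 5.55. These were the 3 members with higher values. Their groups did not overlap, which for FAM13A-AS1 is also no support for a difference. The log2 differences of FAM13A-AS1 and ATP8B1-AS1 were 0.48 (standard error 0.174) and 0.42 (standard error 0.143).

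The other 5 were lower in the DDB2 clones. KIRREL1-IT1, within an intron of the cell adhesion gene KIRREL1, was at 5.43, 5.70, 5.20, 5.16 and 5.01. LINC00937 was at 5.62, 5.77, 5.39, 5.41 and 5.28. Both had every DDB2 clone below both vector clones, with log2 differences of -0.44 (standard error 0.129) and -0.33 (standard error 0.101). LINC00597 was at 4.77 and 5.41 in the vector clones and between 4.54 and 4.56 in all 3 DDB2 clones, so its difference of -0.54 rested mostly on vector clone 3. CACNA1B-AS2, antisense to a neuronal calcium channel gene, was at 5.30 and 5.36 against 5.08, 5.10 and 5.10. LCMT1-AS2, antisense to the methyltransferase of protein phosphatase 2A, was at 4.72 and 4.80 against 4.54, 4.48 and 4.55. Both differed by -0.24, with standard errors of 0.084 and 0.089. With quantile normalization or median centring, unadjusted P in limma was above 0.05 for LINC00597, CACNA1B-AS2 and LCMT1-AS2. In those settings it stayed under 0.05 for KIRREL1-IT1 and LINC00937. LCMT1-AS2 also lay near the filter level.

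**Figure D2:**
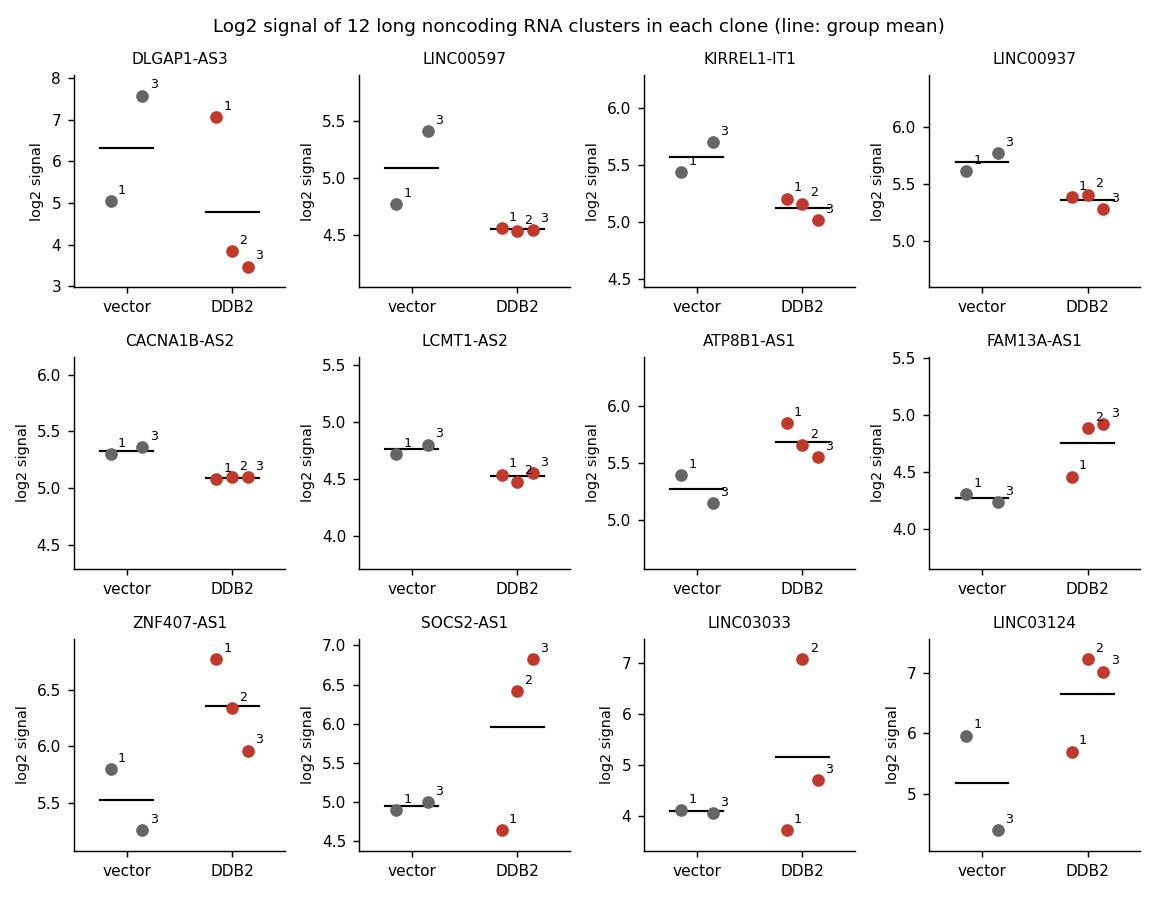
Log2 signal of 12 members in each clone, vector in grey and DDB2 in red, with clone numbers beside the points and group means as lines; they are the 8 members with an unadjusted P under 0.05 and the 4 with a change over 2-fold. In the 8 the groups stood apart by small amounts, whereas DLGAP1-AS3, LINC03124, LINC03033 and SOCS2-AS1 overlapped between groups.

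The 4 members past a 2-fold change were uneven among clones of the same group, DLGAP1-AS3 and LINC03124 in both groups. DLGAP1-AS3, antisense to a gene for a postsynaptic scaffold protein, was at 5.05, 7.57, 7.07, 3.84 and 3.47. It was high in vector clone 3 and DDB2 clone 1 and low in DDB2 clones 2 and 3, and its difference of -1.52 had a standard error of 1.40. LINC03124 was at 5.96, 4.40, 5.70, 7.22 and 7.02, high in DDB2 clones 2 and 3, with a difference of 1.47 (standard error 0.682). LINC03033 was at 4.12, 4.07, 3.72, 7.07 and 4.70, and DDB2 clone 2 was far above the others. It exceeded the filter level only in DDB2 clones 2 and 3, so it too was tested only through the group where it was high. Its difference was 1.07 (standard error 1.03). SOCS2-AS1, antisense to a suppressor of cytokine signalling, was at 4.89 and 5.00 against 4.63, 6.42 and 6.82. DDB2 clone 1 was the lowest of all 5 clones and the other DDB2 clones were the highest, with a difference of 1.01 (standard error 0.697). All 4 had overlapping groups and unadjusted P-values in limma from 0.087 for LINC03124 to 0.347 for LINC03033.

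Single clones decided which members met the thresholds. Without DDB2 clone 1, 4 members were called higher (SOCS2-AS1 at 1.67, LINC03124 at 1.94, LINC00260 at 1.30 and LINC00578 at 1.19) and 1 lower (DLGAP1-AS3 at -2.65). LINC00260 exceeded the filter level only in DDB2 clones 2 and 3, so it was tested only because it was high in that group. Without DDB2 clone 3, IDI2-AS1 (1.10) and ZNF407-AS1 (1.03) were called higher. Without vector clone 1, LINC03124 (2.25), LINC02035 (1.30) and ZNF407-AS1 (1.11) were called, and without vector clone 3, LINC01963 (1.14) and LINC00152 (1.06). No member was called without DDB2 clone 2. The share of all clusters called in each of these fits is not given here, so the counts describe no trait of the members. With all clones LINC00578, a long intergenic gene on chromosome 3, was at 4.72, 5.06, 5.21, 5.89 and 6.26, with every DDB2 clone above both vector clones and a difference of 0.90 (standard error 0.343, limma, unadjusted P = 0.051). LINC01963 was at 5.43, 6.09, 7.05, 6.30 and 6.37 and LINC02035 at 5.42, 4.39, 5.59, 6.03 and 5.45, also without overlap, by 0.82 (standard error 0.325) and 0.78 (standard error 0.364). IDI2-AS1 was at 5.46, 5.04, 6.79, 5.90 and 5.36, and DDB2 clone 3 lay below vector clone 1.

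Differences between clones of the same group were as large as those between groups for most members. In 498 of the 598 members kept, the difference between groups was smaller than the range among the 3 DDB2 clones, and in 402 it was smaller than the gap between the vector clones. In 52 it was larger than both. A range over 1 on the log2 scale across the 5 clones was found in 66 members (11.0%), against 14.5% of all clusters. Of these 66, 2 had a difference between groups larger than the range within each group. The counts of 498, 402, 52 and 2 were not set beside the same counts over all clusters, so they mark no trait of the members. Vector clone 3 was the lowest clone in 29 of the 66 and DDB2 clone 1 the highest in 25. These counts were also not set beside all clusters, so they too mark no trait of the members. The widest members after DLGAP1-AS3 (range 4.10), LINC03033 (3.35) and LINC03124 (2.83) were LINC00362 (2.77), at 6.40, 4.79, 6.38, 4.26 and 3.63, and BSN-DT (2.39), at 5.47, 4.28, 6.41, 5.16 and 4.02. In each of these 2 members, vector clone 1 and DDB2 clone 1 were the 2 highest clones.

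The question of whether antisense genes moved with their sense genes began with sense genes that were themselves called. There were 10 members with a called sense gene, from 6 sense genes, and 1 of the 10 was kept by the filter. That member was KIRREL1-IT1, and its host KIRREL1 was at 6.42, 7.70, 5.55, 5.18 and 5.05. Vector clone 3 was the highest and DDB2 clone 3 the lowest in both genes. KIRREL1 differed by -1.80 (standard error 0.42, limma, unadjusted P = 0.00874, adjusted p = 0.999), and its intronic gene by -0.44. The value of KIRREL1-IT1 minus that of KIRREL1 was higher by 1.36 in the DDB2 clones (exact two-sided permutation test, p = 0.1, the smallest that 10 splits of the clones allow). The pair was chosen because KIRREL1 was called in these same data. This p is therefore no support for a difference between the intronic gene and its host. The other 9 lay under the filter level and were fitted without it. PCDH9, a protocadherin gene, was at 5.91, 3.08, 6.60, 7.29 and 7.65, a difference of 2.68 (standard error 0.901). PCDH9-AS2 was at 2.16, 2.27, 2.59, 2.50 and 3.39 and PCDH9-AS3 at 2.26, 2.01, 2.79, 3.14 and 4.18, both with every DDB2 clone above both vector clones. PCDH9-AS1 was at 3.31, 2.78, 3.07, 3.74 and 4.26, with DDB2 clone 1 between the vector clones. DDB2 clone 3 was the highest clone in PCDH9 and in all 3 antisense genes. PCDH9-AS3 was the only member called without the filter, where 0.24% of all clusters were called, and all its values were under the filter level.

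The remaining sense genes that were called had antisense genes with little change. DPYD, which encodes the enzyme that breaks down uracil and thymine, was at 5.83, 4.16, 6.65, 6.80 and 7.24 (1.90, standard error 0.53). DPYD-AS1 was at 3.71, 3.83, 3.68, 3.81 and 3.87, a difference of 0.01 (standard error 0.10), and DPYD-AS2 stayed between 2.02 and 2.23. ZBTB20, a transcriptional repressor gene, rose past the thresholds by 1.35, while ZBTB20-AS1 differed by 0.25 and ZBTB20-AS3 by 0.07, neither at P under 0.05. FREM2-AS1 and PABPC5-AS1 differed by -0.05 and 0.04, beside 1.18 for FREM2 and 1.31 for PABPC5. Of the 10 members, 9 had the sign of their sense gene. DPYD-AS1, DPYD-AS2, ZBTB20-AS3 and PABPC5-AS1 did so by less than their standard error. The 10 share 6 sense genes, and the count was not set beside the same count for neighbouring coding genes. It therefore marks no trait of the members. Members under the level have values near background, so this array limits how small a change could be seen in them.

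Of the 931 members named for a sense or host gene, 842 had a sense gene with a cluster of its own symbol, and in 342 pairs (325 sense genes) both were kept. The log2 fold changes had the same sign in 205 of the 342 pairs (59.9%), 106 with both higher and 99 with both lower. Pairs of neighbouring protein-coding genes had the same sign in 56.8% of 12742, so the share for all pairs was near that background. Across pairs, which share the same 5 arrays, Pearson's r was 0.36 and Spearman's rho 0.32, beside 0.22 and 0.15 for neighbouring coding genes. Where the sense gene changed by over 0.2 on the log2 scale, the sign was shared in 72 of 99 pairs (72.7%). Neighbouring coding genes chosen in the same way shared it in 59.3% of 3504 pairs. Over 0.5 it was shared in 18 of 22 (81.8%), and no share of neighbouring coding genes is given at that limit. The noncoding change was smaller than that of the sense gene in 84 of the 99 pairs, against 178 of all 342. Choosing pairs by a large sense change favours this, and it held in 2851 of the 3504 pairs of neighbouring coding genes. No difference between these shares was tested, because genes on the same arrays are not independent replicates. By class, the sign was shared in 61.0% of 272 -AS pairs, 57.8% of 45 -DT pairs and 52.0% of 25 -IT1 pairs. With RefSeq start sites on opposite strands, it was shared in 62.4% of 109 pairs within 1 kb of each other and in 63.8% of 116 pairs farther apart. In the 106 pairs whose start sites could not be compared, the sign was shared in 52.8%. On the same strand it was shared in 7 of 11 pairs. Within 1 kb, it was shared in 40 of 71 pairs that ran outwards and in 28 of 38 that overlapped at their starts.

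**Figure D3:**
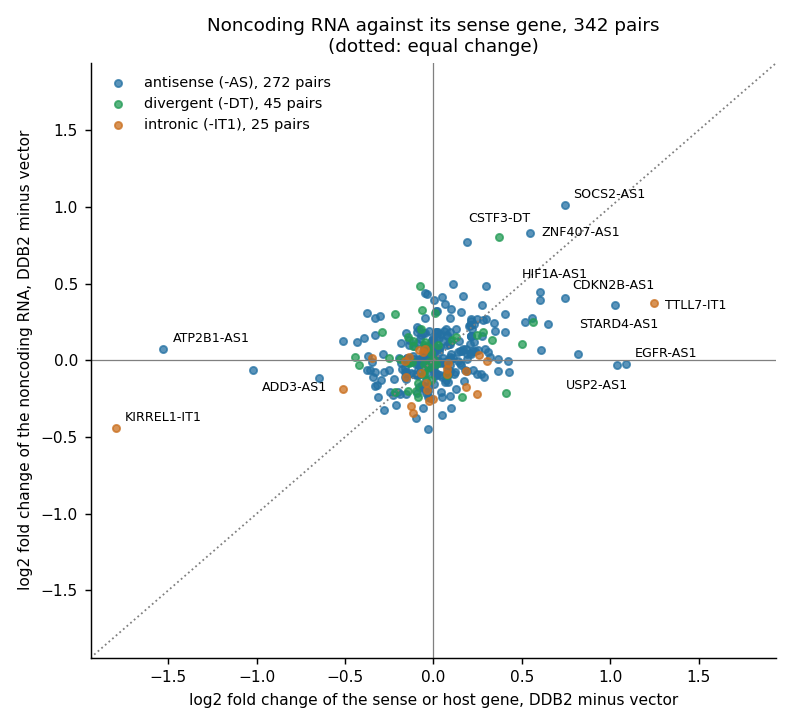
Log2 fold change, DDB2 minus vector, of the sense or host gene (horizontal) and of the noncoding RNA (vertical) for 342 pairs, coloured by class, with equal change as a dotted line. The sign was shared in 59.9% of pairs. Most points with a large sense change lie closer to the horizontal zero line than to the dotted line, which choosing points by the sense change favours.

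Some pairs with larger changes of the same sign are given by clone. CDKN2B-AS1 (also called ANRIL) was at 4.92, 5.04, 5.61, 5.16 and 5.38, with every DDB2 clone above both vector clones, and differed by 0.41 (standard error 0.161). CDKN2B, an inhibitor of cyclin-dependent kinases, was at 6.55, 6.01, 6.99, 7.44 and 6.65, also without overlap, by 0.75 (standard error 0.30). HIF1A-AS1 was at 4.78, 5.08, 5.09, 5.55 and 5.50, and HIF1A, the oxygen-regulated subunit of a hypoxia factor, at 9.91, 10.07, 10.12, 11.01 and 10.65. In both genes all DDB2 clones lay above both vector clones and DDB2 clone 2 was the highest, with differences of 0.44 (standard error 0.194) and 0.60 (standard error 0.28). ZNF407, a zinc finger gene, was at 5.75, 6.12, 6.64, 6.46 and 6.36, by 0.55 (standard error 0.16), and like its antisense gene it was highest in DDB2 clone 1, then 2, then 3. The vector clones came in the opposite order in the 2 genes. The intronic TTLL7-IT1 was at 4.99, 4.67, 5.02, 5.16 and 5.41, beside 5.52, 4.02, 5.32, 6.18 and 6.56 for its host TTLL7, which encodes an enzyme that adds glutamate chains to tubulin. Unadjusted P-values in limma were above 0.05 for these pairs, except for ZNF407-AS1 and ZNF407.

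In several pairs, the member and its sense gene were high and low in the same clones, whichever group the clones belonged to. KCNJ2, the gene of an inward rectifier potassium channel, was at 8.65, 3.86, 4.05, 8.99 and 8.17. KCNJ2-AS1 was at 6.20, 4.71, 4.24, 6.15 and 6.09. Both were high in vector clone 1 and DDB2 clones 2 and 3 and low in the other clones, so that the antisense gene differed between groups by only 0.04 (standard error 0.785). The same clones were high in SLIT2-IT1, at 6.42, 5.31, 4.25, 6.37 and 6.31, and in SLIT2, the gene of a secreted guidance ligand, at 8.77, 5.64, 5.39, 8.48 and 8.48. SOCS2 was at 5.65, 5.81, 4.99, 7.25 and 7.17, and like SOCS2-AS1 it was lowest in DDB2 clone 1 and highest in DDB2 clones 2 and 3. TM4SF1-AS1 was at 4.42, 5.63, 4.13, 5.40 and 6.41, and TM4SF1, which encodes a surface protein of tumour cells, at 9.76, 11.02, 8.07, 10.99 and 11.19. DDB2 clone 1 was the lowest and DDB2 clone 3 the highest in both. CSTF3-DT was at 4.74, 3.26, 5.50, 4.69 and 4.23 and CSTF3, a factor for cleavage of mRNA ends, at 8.82, 8.44, 9.40, 8.99 and 8.61, with DDB2 clone 1 the highest and vector clone 3 the lowest in both. RAB30-DT was at 6.94, 6.50, 7.10, 7.11 and 6.70, and RAB30, a small GTPase gene, at 5.98, 4.86, 6.40, 6.38 and 5.17. In both, DDB2 clones 1 and 2 were high and vector clone 3 and DDB2 clone 3 were low.

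**Figure D4:**
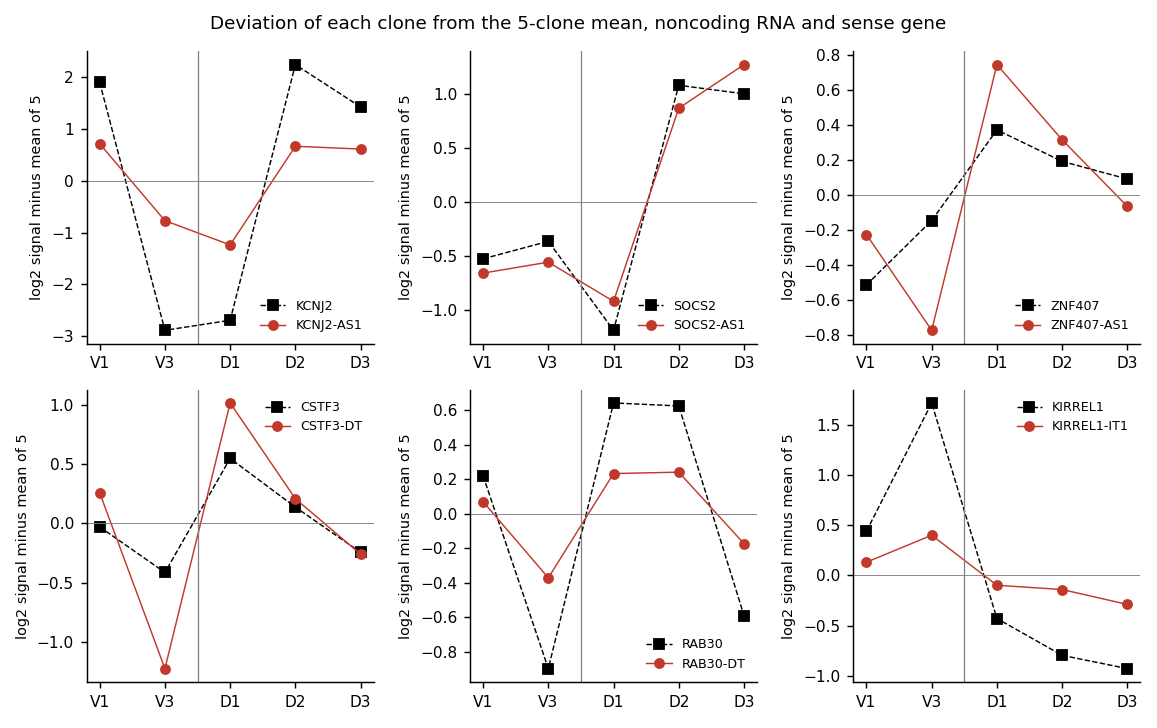
Log2 signal minus the mean of the 5 clones for 6 pairs, noncoding RNA in red and sense or host gene in black, with vector clones (V1, V3) left and DDB2 clones (D1, D2, D3) right of the grey line. In the KCNJ2 pair, V1, D2 and D3 were above the mean and V3 and D1 below it in both genes, and in the KIRREL1 pair both vector clones were above and all DDB2 clones below.

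This was counted over the 57 pairs whose sense gene ranged by over 1 among the clones. The clone with the lowest signal was the same in both genes in 34 pairs (59.6%), and the clone with the highest in 24 (42.1%). Neighbouring protein-coding genes chosen in the same way had the same lowest clone in 30.7% and the same highest clone in 31.5% of 2031 pairs. Deviations of the clones from the 5-clone mean had a Pearson's r of 0.64 over the 57 pairs and of 0.30 over the neighbouring coding genes, a description over points that share the arrays. The lowest clone was shared in 26 of 43 -AS pairs, 3 of 8 -DT pairs and 5 of 6 -IT1 pairs. It was DDB2 clone 1 in 11 of the 34 pairs, vector clone 3 in 9 and DDB2 clone 3 in 9. In the sense gene alone, these clones were lowest in 20, 13 and 14 of the 57 pairs. When each clone was left out in turn, the share with the same lowest clone ran from 56.2% to 68.3%, beside 34.5% to 39.4% for neighbouring coding genes, and r from 0.64 to 0.67. These counts were chosen after the values of single pairs had been seen.

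**Figure D5:**
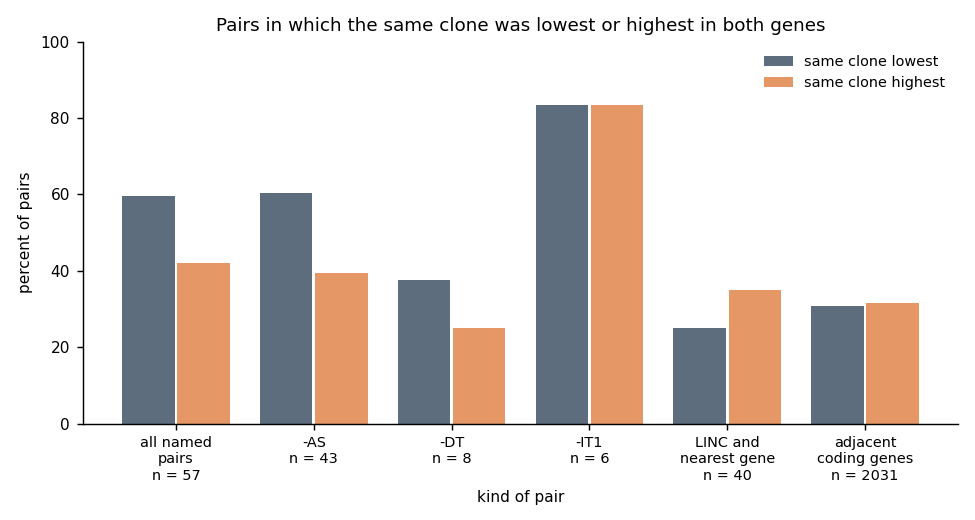
Percent of pairs in which the same clone had the lowest (grey) or the highest (orange) log2 signal in both genes, among pairs whose sense gene or neighbour ranged by over 1 on the log2 scale, with the number of pairs under each group. The same clone was lowest in 59.6% of named pairs, 10 of 40 LINC clusters with the nearest coding gene and 30.7% of adjacent coding genes.

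ATP2B1, the gene of a calcium pump of the plasma membrane, was at 8.51, 6.94, 9.60, 4.60 and 4.40. ATP2B1-AS1 was at 5.10, 4.81, 5.73, 4.90 and 4.46, and both genes were highest in DDB2 clone 1 and lowest in DDB2 clone 3. Between groups the antisense gene differed by 0.07 (standard error 0.40) and ATP2B1 by -1.53 (standard error 1.81). In other pairs the sense gene varied among the clones and the antisense gene varied little. EGFR, a growth factor receptor gene, ran from 4.80 in DDB2 clone 1 to 8.43 in DDB2 clone 2, and EGFR-AS1 stayed between 4.04 and 4.56. USP2, a deubiquitinase gene, was at 7.46 and 7.35 in DDB2 clones 2 and 3 and at 5.14 in DDB2 clone 1, while USP2-AS1 stayed between 5.58 and 5.75. ADD3 ran from 3.84 to 6.30 and ADD3-AS1 from 4.55 to 4.63. In the opposite case, BSN, which encodes a presynaptic scaffold protein, stayed between 5.00 and 5.19 while BSN-DT ranged by 2.39. Their start sites lie 111 bases apart. EGFR-AS1 and ADD3-AS1 lay near the filter level of 4.48, and BSN not far above it. For these genes, steady expression and a signal near background cannot be told apart.

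LINC genes carry no sense gene in their name. Each of the 189 LINC clusters kept was therefore set beside the nearest protein-coding gene with a kept cluster, with no limit on distance. The sign was shared in 108 (57.1%), and in 42 of 69 (60.9%) where the neighbour changed by over 0.2, near the 56.8% and 59.3% of neighbouring coding genes. Of 40 LINC clusters whose neighbour ranged by over 1, the lowest clone was shared in 10 and the highest in 14 (35.0%). LINC00260 was at 3.59, 3.95, 3.60, 4.64 and 5.50, and the neighbouring calcium pump gene ATP2B4 at 7.11, 7.59, 6.23, 8.61 and 9.28. DDB2 clones 2 and 3 were highest in both. In contrast, LINC03124 varied as given above while its neighbour CCDC74A stayed between 6.23 and 6.84. For LINC03033, high in DDB2 clone 2, the nearest such gene was PRKCH, a protein kinase C gene. PRKCH was lowest in that clone (6.75) and highest in vector clone 3 (8.31).

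Long noncoding RNAs studied in cancer, stress and p53 responses showed no difference past the thresholds. Of 15 such symbols measured, 11 were kept, and 0 had an unadjusted P under 0.05 in limma. Their median change was 0.05, from -0.23 for DLGAP1-AS1 to 0.28 for LINC00152, beside -0.01 over all clusters. OIP5-AS1, a cytoplasmic RNA that binds a microRNA, was at 9.08, 8.44, 9.18, 9.08 and 8.03, with vector clone 3 and DDB2 clone 3 low. LINC00152, named CYTOR in RefSeq, was at 5.99, 7.54, 6.88, 6.88 and 7.37, between the vector clones in all DDB2 clones. AFAP1-AS1 was at 5.40, 5.58, 5.77, 5.55 and 5.87 and MCM3AP-AS1 at 5.62, 5.63, 6.13, 5.80 and 5.76, with differences of 0.24 (standard error 0.14) and 0.27 (standard error 0.15). Neither reached P under 0.05. LINC00312 lay under the filter, with 1 array above the level, at 3.52, 3.02, 3.06, 3.96 and 5.90.

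Of 9 antisense genes of the HOX clusters (homeobox genes that set position along the body), 7 were kept, with a median change of -0.05 and 0 at P under 0.05. HOXC-AS2 was at 5.57, 5.54, 5.21, 5.49 and 5.20, lower in every DDB2 clone, by -0.26 (standard error 0.127). HOXB-AS3 was at 6.38, 5.09, 5.57, 6.65 and 6.40, and its difference of 0.47 (standard error 0.518) rested on the low vector clone 3. HOXB-AS1 was low in vector clone 3 and DDB2 clone 3, at 7.17, 6.19, 6.93, 6.97 and 6.24. Of 9 genes antisense to or within transcription factor genes, including those of the epithelial to mesenchymal transition, 3 were kept. FOXN3-AS1 was at 5.04, 5.48, 5.05, 4.74 and 5.04, and its difference of -0.31 (standard error 0.187) was -0.095 without vector clone 3. MEIS1-AS3 differed by 0.00 (standard error 0.15) and ZEB1-AS1, which starts beside the repressor gene ZEB1, by -0.03 (standard error 0.13). The other members of that list, among them ZEB2-AS1, GATA3-AS1 and RUNX1-IT1, lay under the level. Of 20 further long noncoding RNAs outside the naming rule, 11 were kept and 0 had P under 0.05, with changes from -0.16 for SNHG8 to 0.16 for TERC. MALAT1, an abundant nuclear RNA, was at 11.33 in vector clone 3 and 11.39 in DDB2 clone 3, with the other clones between 11.98 and 12.03.

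The start regions of the members differed from those of all genes in their content of CG. RefSeq windows were found for 1065 members. The median number of CG dinucleotides per 300 bases was 8 in these, 18 in the 434 that were kept and 14 over all 27305 windows. TATAAA, on either strand, was present in 11.5% of member windows, 6.91% of those kept and 3264 of all 27305 windows. CCAAT was present in 34.8%, 35.0% and 35.7%, and CACGTG in 6.76%, 7.14% and 7.43%. The kept members had more CG and fewer TATAAA matches than all members, while CCAAT and CACGTG were near the share of all windows. A match only says that the letters are in the window.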

How the data were processed

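Total RNA of 5 CP70 clones was hybridized to 1 array each. Per the methods, the authors applied background correction, normalization and RMA summarization, and the deposited values were taken as log2 signals. That scale was read from their range, 1.01 to 14.1 over transcript clusters, since the table does not name it; software versions and genome build are not given in the sources used here. From 70523 entries, 2995 controls were left out. The deposited table still holds probe sets below noise, so clusters above the overall median on at least 2 arrays were kept. Values near background, where most members lie, resolve small changes poorly.

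DDB2 was compared with vector in limma 3.58.1 in R 4.3.3 with moderated variances (prior degrees of freedom 1.72) and Benjamini-Hochberg adjustment over 34141 clusters. Alternatives were other filters, quantile normalization, median centring, trend with robust fitting, no shrinkage, a replicate block, other thresholds and each array left out. The code was tested on simulated data.

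Gene symbols came from the platform annotation. Of 1490 members, 1032 matched RefSeq by gene number, 382 by symbol and 75 by synonym, and 1 was not matched; 1452 were annotated as lncRNA and 25 as protein-coding. Sense genes were found by removing the suffix, with the brightest cluster taken. The rule for names was every called member, its sense gene or neighbours, members with a called sense gene, kept members of the studied lists and DDB2. As no member was called, the others were named after their values were seen. Members and lists were chosen with earlier results of these data known. Figures were drawn with matplotlib 3.10.9.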

Additional observations from a re-analysis of the deposited data

Results flagged for a closer look

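PCDH9-AS3 was set apart because it lay outside the clusters tested and still met the thresholds when no filter was applied. Its log2 difference between DDB2 and vector clones was 1.24 (limma, unadjusted P = 0.0365, adjusted p = 1.00), with all 5 values under the level used as noise.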

How the results depend on the processing

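The counts of 0 members called higher and 0 called lower held under 75th-percentile and both-group filters, quantile normalization, median centring, an intensity trend with robust fitting, no shrinkage, adjusted p and 1 cluster per symbol. Unadjusted P under 0.05 was then met by 1 to 21 members. Without a filter, or with one at the 25th percentile, 1 member was called higher, and 1 was at a fold change over 1.5 (ZNF407-AS1). When each array was left out, 0 to 4 were called higher and 0 to 1 lower; the arrays are named above. Some of these settings test fewer or more clusters, and no other cause was tested. Beside the main fit, the share of all clusters called is given only without a filter (0.24%). The other counts therefore describe no trait of the members. The share of pairs with the same sign was 54.1% of 61 with the filter at the 75th percentile, 72.7% of 99 where the sense gene changed by over 0.2, and 56.2% to 60.7% with an array left out.

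The groups share the title numbers 1 and 3. Deviations of clones with the same number correlated at 0.13 and 0.34 over clusters, and those of vector clone 1 and DDB2 clone 2 at 0.25. With 2 vector clones the deviations mirror each other, so each value has the opposite sign for the other vector clone. Only 2 pairs share a number and DDB2 clone 2 is left over, so the numbers were not taken to pair the clones. With a replicate block, 0 members were called higher and 0 lower, and 57.9% of pairs had the same sign. DDB2 clone 2 stands alone in its block, so each log2 difference equals that of the fit without this clone. The block is therefore no separate alternative for these differences, and its sign changes recur with that clone left out. Among 34 named members, 416 of 445 values kept their direction and their side of the thresholds, 12 passed them and 17 changed sign. The sign changes were KCNJ2-AS1 (-0.29 with the replicate block), OIP5-AS1 (-0.15 with the replicate block, -0.035 with quantile normalization) and, with an array left out, KCNJ2-AS1 (-0.70 to 0.78), OIP5-AS1 (-0.31 to 0.37), HOXB-AS3 (-0.18 to 1.12), BSN-DT (-0.28 to 0.92), SLIT2-IT1 (-0.77 to 0.47), TM4SF1-AS1 (-0.32 to 0.89) and LINC00152 (-0.50 to 1.06). Signals near background limit what could be seen in the 892 members under the filter.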
